A study of Mus musculus with 6 samples.

Results

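The acute-phase state of the liver was compared between 3 livers in which Saa1, the gene of the acute-phase plasma protein serum amyloid A1, was high and 3 livers in which it was low. The livers were chosen by Saa1 itself: its count was divided by the total count of the library and scaled to CPM, the usual unit of counts relative to library size, and a liver at or above 200 CPM was placed in the high set. The rule took WT 1, WT 2 and Het 1 into the high set and WT 3, Het 2 and Het 3 into the low set, so that all 6 livers of the series were used and each set held both genotypes. The sets were defined from the measured values and are not groups of the study. The contrast is therefore given as a description, without a p-value or a standard error, and Saa1 is reported only as the gene that set the livers apart.

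WT denotes Ing5 +/+ livers and Het denotes livers heterozygous for the MommeD48 allele of Ing5, with 3 livers of each genotype. All came from FVB mice of 84 days, had no treatment in the labels, were frozen on dry ice as whole tissue, and were sequenced as polyA RNA. The MommeD48 allele was found in a forward genetic screen in which the silencing of a transgene was scored, and Ing5 encodes a PHD-finger subunit of histone acetyltransferase complexes. The labels do not give the kind of mutation. They do not say either that the livers of a genotype are from different mice, so the genotype p-values cover the variation between these libraries, and part of it may be technical.

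The acute-phase response is the change in plasma protein synthesis by hepatocytes after infection, injury or other stress. Cytokines such as interleukin 6 and interleukin 1 act on receptors of the hepatocyte, signal through STAT3, NF-kappaB and C/EBP factors, and raise the transcripts of the positive acute-phase proteins, while those of albumin, transthyretin and other negative acute-phase proteins decline. The metallothioneins, small proteins that bind zinc, are induced in the same response.

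The upstream sequences of genes far apart between the sets are shown for their sites close to the start of transcription. Acute-phase genes are known for C/EBP sites there, and metallothionein genes for metal response sites. Each sequence is the 250 bases before the annotated start site, 5′ to 3′ on the strand of the gene, from RefSeq on GRCm38.p6, a later build than the mm9 of the files, and capitals mark every match to the motifs searched. The motifs were a STAT site (TTCNNNGAA), a C/EBP site (TTGCNNAA), a metal response core (TGCACNC or TGCGCNC) and the NF-kappaB consensus, each on both strands, and no match of one motif overlapped that of another in the sequences shown. Saa2 lies at chr7:46751583-46751832 on the plus strand, Saa1 at chr7:46742981-46743230 on the minus strand, Lcn2 at chr2:32387740-32387989 on the minus strand, Orm2 at chr4:63362199-63362448 on the plus strand, Serpina7 at chrX:139085237-139085486 on the minus strand, Mt2 at chr8:94172368-94172617 on the plus strand and Mt1 at chr8:94178839-94179088 on the plus strand.
Saa1: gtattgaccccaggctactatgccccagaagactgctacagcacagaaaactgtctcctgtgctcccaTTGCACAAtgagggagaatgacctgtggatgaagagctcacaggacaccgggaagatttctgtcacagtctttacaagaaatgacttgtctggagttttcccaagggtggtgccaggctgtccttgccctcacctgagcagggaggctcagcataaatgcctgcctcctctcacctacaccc
Saa2: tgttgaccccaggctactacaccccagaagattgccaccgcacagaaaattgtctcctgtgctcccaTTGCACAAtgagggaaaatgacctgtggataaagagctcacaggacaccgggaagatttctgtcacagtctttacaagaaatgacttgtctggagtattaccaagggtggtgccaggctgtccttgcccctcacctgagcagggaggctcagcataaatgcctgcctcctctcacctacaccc
Lcn2: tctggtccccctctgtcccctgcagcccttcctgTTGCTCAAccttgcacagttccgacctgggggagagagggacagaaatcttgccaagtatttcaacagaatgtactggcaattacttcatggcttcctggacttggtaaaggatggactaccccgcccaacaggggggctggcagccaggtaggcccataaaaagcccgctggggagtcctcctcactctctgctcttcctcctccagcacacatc
Orm2: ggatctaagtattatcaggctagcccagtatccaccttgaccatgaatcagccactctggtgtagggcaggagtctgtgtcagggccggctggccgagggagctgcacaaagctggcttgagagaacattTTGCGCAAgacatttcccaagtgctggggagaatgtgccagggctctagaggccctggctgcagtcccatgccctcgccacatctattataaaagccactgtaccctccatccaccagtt
Serpina7: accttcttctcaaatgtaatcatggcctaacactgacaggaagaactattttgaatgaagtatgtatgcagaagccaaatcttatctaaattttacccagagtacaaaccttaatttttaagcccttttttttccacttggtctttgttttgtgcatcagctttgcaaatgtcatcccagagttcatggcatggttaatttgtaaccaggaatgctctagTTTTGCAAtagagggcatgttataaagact
Mt2: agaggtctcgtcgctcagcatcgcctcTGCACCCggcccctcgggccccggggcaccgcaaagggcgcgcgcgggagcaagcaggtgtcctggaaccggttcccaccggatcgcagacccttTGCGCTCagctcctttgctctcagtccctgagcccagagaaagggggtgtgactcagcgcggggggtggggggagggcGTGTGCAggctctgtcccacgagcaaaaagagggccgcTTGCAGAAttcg
Mt1: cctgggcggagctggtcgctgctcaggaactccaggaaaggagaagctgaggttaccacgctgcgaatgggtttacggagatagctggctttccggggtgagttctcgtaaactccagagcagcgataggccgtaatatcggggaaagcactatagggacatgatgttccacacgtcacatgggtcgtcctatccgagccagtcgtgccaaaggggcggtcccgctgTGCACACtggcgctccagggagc
The C/EBP match TTGCACAA stood at -182 to -175 before the start of Saa1 and at -183 to -176 before that of Saa2. Lcn2 held TTGCTCAA at -216 to -209 and Orm2 held TTGCGCAA at -120 to -113. Mt2 held 3 metal response cores and Mt1 held 1. These counts hold for the first RefSeq entry of each gene, and sequences before other start sites were not searched. Of the 26 genes separated on the higher side by the criterion given below, Saa1 not counted, 18 had an upstream sequence in the RefSeq table. A C/EBP match was found in 7 of these 18 (38.9%) and in 9.55% of all 27025 upstream sequences, a metal response core in 5 of 18 (27.8%) and in 21.3% of all, a STAT match in 2 of 18 (11.1%) and in 7.18% of all, and an NF-kappaB match in 0 of 18 and in 3.75% of all. None of the motifs was found in 6 of the 18. The 7 with a C/EBP match include Orm2 and Orm3, close copies with the match at nearly the same place, so they are not separate cases. The 27025 sequences were not limited to genes expressed in liver. A match is a description of the letters, and the motifs were chosen with the expression values known.

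Saa1 stood at 1378, 4299 and 736 CPM in WT 1, WT 2 and Het 1 and at 30.6, 45.8 and 24.6 CPM in WT 3, Het 2 and Het 3, before normalisation. The value just inside the threshold was 736 CPM in Het 1 and the value just outside was 45.8 CPM in Het 2, so no liver lay near 200 CPM. These levels rested on 15754 to 94763 counts in the high livers and on 492 to 975 counts in the low livers.

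Total counts were 19840541 to 22041117 per library, and 16323 to 16597 genes had at least 1 count. Where a library has a count of 0, up to 3 counts are allowed, which corresponds to 0.136 to 0.151 CPM and covers counting error only. Scale factors by the trimmed mean of M-values (TMM) ranged from 0.977 to 1.02. No library was a copy of another. Het 2 and Het 3, both of the low set, were the most alike, with a chi-square per degree of freedom over genes of 10.2. The other pairs had 24.9 to 79.9, and counting error alone would give about 1. Ribosomal protein genes took 0.883% to 0.960% of the counts in the high livers and 0.988% to 1.01% in the low livers, without overlap, while the mitochondrial share overlapped at 10.8% to 11.6% and 11.4% to 13.4%. The part of these shares in the differences below was not tested. Ing5 itself stood at 8.76, 10.3 and 9.23 CPM in the high livers and at 9.82, 9.98 and 8.78 CPM in the low livers. Its genotype difference was -0.05 (log2 Het over WT, edgeR quasi-likelihood adjusted p = 1), and since the kind of mutation is not given this count does not check the genotype labels.

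All values below are TMM-normalised CPM, given in the order WT 1, WT 2 and Het 1 for the high livers and WT 3, Het 2 and Het 3 for the low livers. A gene is called separated where the lowest liver of one set was at least 1.5 times the highest liver of the other after 0.5 CPM was added to each, and folds are ratios of geometric means on that same scale, which understates the folds of low transcripts. Of 12630 genes tested without Saa1, 26 were separated on the higher side in the high-Saa1 livers (0.206%) and 3 on the lower side (0.0238%). Of the 26, 16 belonged to a pathway list, 10 of them to the list of acute-phase plasma proteins, and none of the 3 lower genes did. With any 1 liver left out the rule has fewer livers to separate, and 29 (without WT 2) to 62 (without Het 1) genes were then separated on the higher side and 5 (without WT 2) to 25 (without WT 3) on the lower side, the 26 and the 3 among them each time.

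**Figure D1:**
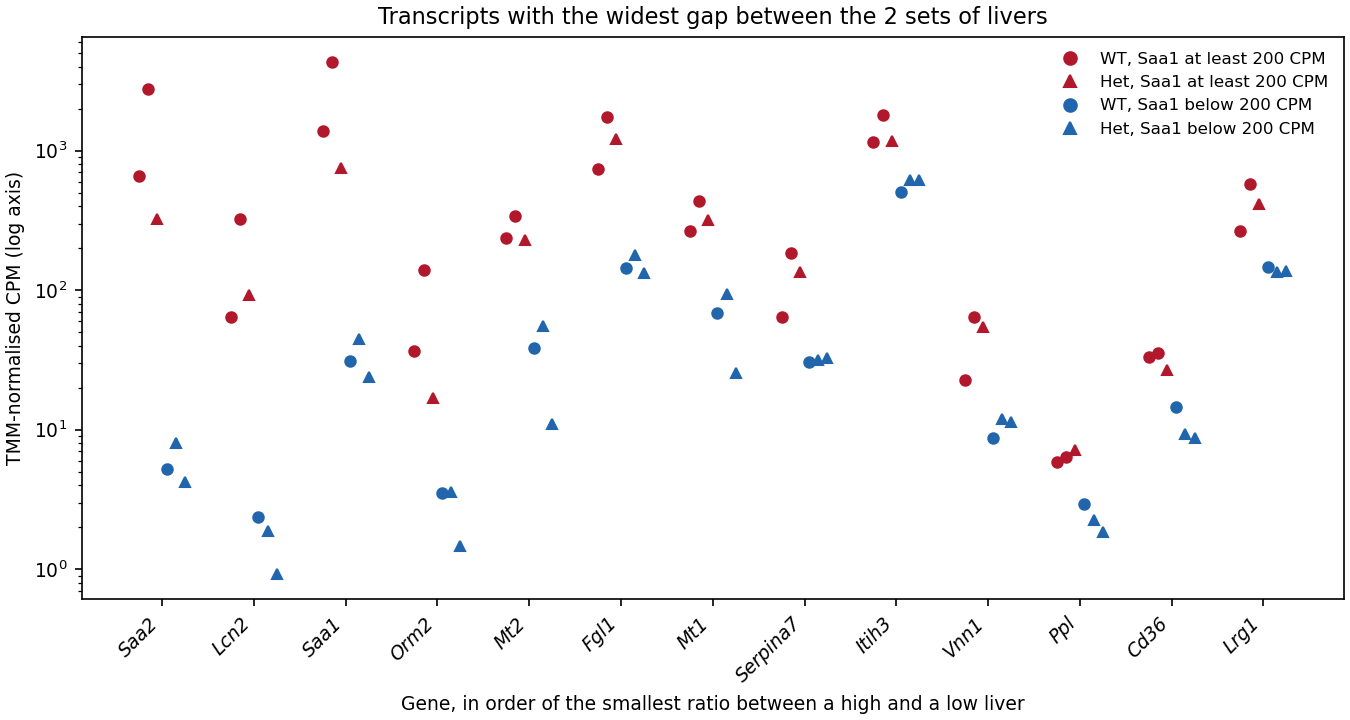
TMM-normalised CPM (log axis) of Saa1 and the 12 transcripts with a mean of at least 1 CPM and the largest smallest-ratio between a high and a low liver, in that order. Each point is 1 liver, circles are WT and triangles are Het, and red and blue mark livers with Saa1 at least and below 200 CPM. For Saa2 the lowest high liver was at 323 CPM and the highest low liver at 8.05 CPM, and for each gene all red points lie above all blue points.

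Saa2, which encodes the second acute-phase serum amyloid A of high-density lipoprotein, had the widest gap. It stood at 657, 2785 and 323 CPM in the high livers and at 5.24, 8.05 and 4.24 CPM in the low livers. The high set was 137 times the low set, 75.0 times without WT 2 and 220 times without Het 1, the highest and lowest of the high livers. Saa1 and Saa2 are near-identical copies, and how the authors' counting divided reads between them is not given in the sources used here, so the level of each is uncertain. The other members did not follow: Saa4, the constitutive serum amyloid A of the liver, stood at 834 and 1034 CPM in WT 1 and WT 2 but at 404.5 CPM in Het 1, below the 438, 448 and 439.7 CPM of the low livers. Saa3, made mainly outside hepatocytes, stood at 5.25, 25.0 and 4.45 CPM against 1.70, 4.83 and 3.41 CPM, so that Het 1 lay below Het 2.

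Lcn2, the lipocalin that withholds iron by binding bacterial siderophores, had the second widest gap, at 64.6, 323 and 92.4 CPM against 2.36, 1.89 and 0.927 CPM. The high set was 58.6 times the low set and 36.4 times without WT 2. Fgl1, a fibrinogen-like protein secreted by hepatocytes, stood at 734, 1734 and 1219 CPM against 144, 178 and 133 CPM, a fold of 7.68. In both genes Het 1 was higher than WT 1, whereas in Saa2 it was lower.

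The orosomucoids, acidic glycoproteins that bind drugs and lipids in plasma, were separated as a family. Orm2 stood at 36.7, 139 and 17.0 CPM against 3.49, 3.59 and 1.46 CPM, a fold of 14.1 that was 8.03 without WT 2 and 22.7 without Het 1. Orm1, the most abundant of the 3, stood at 774, 1132 and 670.5 CPM against 378, 281 and 253 CPM. Orm3 was at 3.66, 6.31 and 1.29 CPM against 0.565 and 0.0460 CPM in WT 3 and Het 2 and a count of 0 in Het 3. These genes are close copies and reads may have been divided between them.

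The other separated acute-phase proteins were abundant and had smaller folds. Hp, haptoglobin, which binds free haemoglobin, stood at 3020, 5732 and 3478 CPM against 1544, 1938 and 1611 CPM. Hpx, hemopexin, which binds free haem, stood at 4098, 6643 and 3595 CPM against 2206, 2326 and 2085 CPM. Both were about as far apart, with folds of 2.32 and 2.09. Apcs, serum amyloid P, the pentraxin that is the main acute-phase pentraxin of mice, stood at 209, 524 and 480.1 CPM against 117, 105 and 130 CPM, a fold of 3.20 with WT 1 nearest to the low livers. Lrg1, a leucine-rich plasma glycoprotein, had a fold of 2.85 and Itih3, a heavy chain of the inter-alpha-trypsin inhibitors, one of 2.33. Crp, the pentraxin that is the main acute-phase protein in humans but not in mice, overlapped at 451, 426 and 344 CPM against 345, 382 and 345 CPM.

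Of the 22 tested members of the acute-phase list, 17 did not overlap on the higher side and 0 on the lower side, where 8.46% of all genes tested did not overlap on the higher side and 8.86% on the lower side. The median log2 difference of the list was 1.0, against -0.000805 over all genes. Without Saa1, the list summed to 25613, 38541 and 25775 CPM in the high livers and 15273, 18432 and 17305 CPM in the low livers. WT 2 was far above the other livers, while WT 1 and Het 1 had sums close to each other although their Saa1 levels differed. Besides Crp, the members that overlapped were Lbp, Cd14, Serpina3m and Leap2. Lbp, which binds bacterial lipopolysaccharide, was highest in WT 2 at 173 CPM and WT 1 at 117 CPM, while Het 1 at 90.9 CPM was level with Het 2 at 91.1 CPM. The list was written with earlier results of these livers known, and Saa1 is one of the response's defining genes, so these counts are no independent evidence of its direction.

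**Figure D2:**
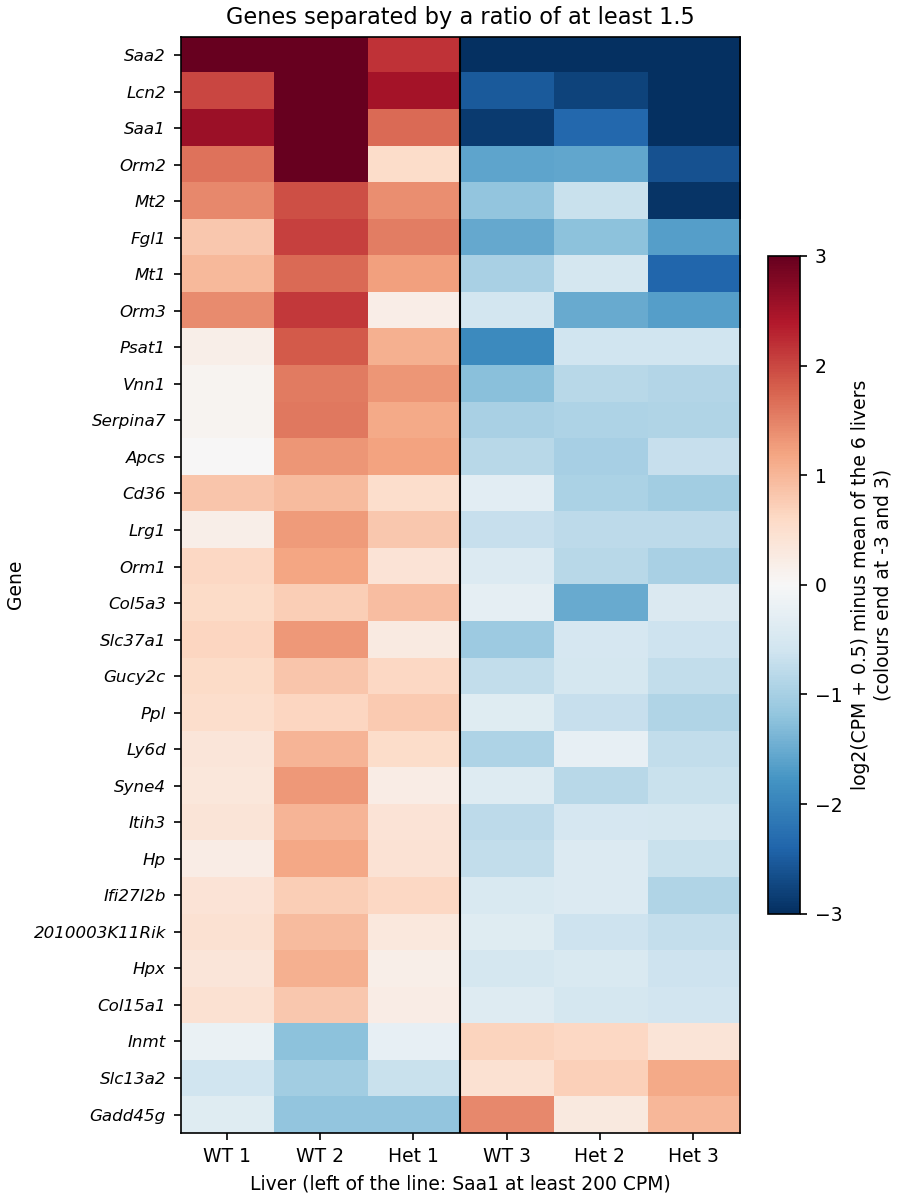
Heat map of the 29 separated genes and Saa1 in each liver, as log2(CPM + 0.5) minus the mean of the 6 livers, with colours ending at -3 and 3. The 3 livers left of the line have Saa1 of at least 200 CPM. WT 2 was the highest liver for 24 of the 26 higher genes.

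The livers of the high set were not alike. Over the 26 higher genes WT 2 was the highest liver in 24 and Het 1 in 2, Col5a3 and Ppl. Het 1 was above WT 1 in 15 and below it in 11, although Saa1 was lower in Het 1. Psat1, an enzyme of serine synthesis, stood at 5.54, 18.6 and 10.6 CPM against 0.925, 3.04 and 3.02 CPM, and Vnn1, a pantetheinase induced by fatty acids through PPARA, at 22.7, 64.6 and 54.4 CPM against 8.69, 11.9 and 11.4 CPM. In both, WT 1 was the lowest of the high livers.

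The other separated genes, of no list, were mostly rare in liver. Col5a3, a fibrillar collagen chain, stood at 17.1, 19.2 and 21.99 CPM against 9.35, 3.63 and 8.29 CPM, and Col15a1, a basement membrane collagen, at 15.02, 19.5 and 12.8 CPM against 8.12, 7.36 and 7.17 CPM. Ppl, the cytoskeletal linker periplakin, stood at 5.87, 6.35 and 7.17 CPM against 2.93, 2.25 and 1.85 CPM, with the high livers close together. Slc37a1, of a family of sugar phosphate transporters, was at 3.30 to 7.30 CPM against 0.976 to 1.75 CPM, and 2010003K11Rik at 11.8 to 18.7 CPM against 5.51 to 7.14 CPM. Syne4, which links the nucleus to the cytoskeleton, Ly6d, a lymphocyte antigen 6 family protein, Ifi27l2b, and Gucy2c, a receptor guanylate cyclase, were below 5 CPM in every liver. Gucy2c had 1 to 3 counts in each low liver, so its ratio is poorly determined.

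The metallothioneins were separated next to the acute-phase proteins. Mt2 stood at 239, 339 and 230.5 CPM against 38.5, 55.2 and 11.1 CPM, a fold of 9.06 that was 5.69 without Het 3, the lowest liver. Mt1 stood at 265 CPM in WT 1, 439 CPM in WT 2 and 320.4 CPM in Het 1 against 69.1, 93.2 and 25.5 CPM, a fold of 6.05. Both were more alike among the high livers than Saa2, and Het 3 was the lowest liver for each. Of the 10 tested members of the list of metallothioneins and zinc transporters, 3 did not overlap on the higher side (30%, against 8.46% of all genes). These were Mt1, Mt2 and the zinc importer Slc39a1, the last at 69.2 to 76.6 CPM against 62.6 to 64.2 CPM. Mtf1, the zinc-sensing factor that drives metallothionein transcription, and the zinc importer Slc39a14 overlapped, with log2 differences of 0.10 and 0.37.

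Cytokines and their receptors came next in the pathway. Of 18 inflammatory ligands only 8 passed the filter on low counts, and 0 of the 8 was free of overlap in either direction. Of all genes 8.46% were free of overlap on the higher side and 8.86% on the lower side. For 8 genes a count of 0 is near these shares and is no result about the ligands. Il6 and Il22 had a count of 0 in all 6 livers. Cxcl1, a neutrophil chemokine, was highest in WT 2 and WT 1 at 16.7 and 10.7 CPM, and Het 1 at 7.36 CPM lay just below WT 3 at 7.40 CPM.

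In the list of interleukin 6 and interleukin 1 signalling, 3 of 37 tested members did not overlap on the higher side and 5 on the lower side (8.11% and 13.5%), near the shares over all genes. Il1r1, the receptor of interleukin 1, stood at 122, 136 and 81.0 CPM against 38.3, 67.3 and 62.9 CPM, the largest difference of the list. Nfkbiz and Tnfaip3 were higher without overlap, and Il1rap, Nfkb1, Nfkbia, Cebpa and Cebpb were lower without overlap by 0.15 to 0.31 on the log2 scale. Stat3, which carries the interleukin 6 signal to the nucleus, stood at 127 and 151 CPM in WT 1 and WT 2, while Het 1 at 84.5 CPM lay within the 70.3 to 86.1 CPM of the low livers. Il6ra, the interleukin 6 receptor, and Socs3, the feedback inhibitor of the pathway, overlapped in the same way. Het 1, at 28.8 CPM for Il6ra and 5.07 CPM for Socs3, lay among the low livers, while the WT livers of the high set were above them at 43.6 to 43.8 CPM and 6.31 to 11.5 CPM.

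Complement and coagulation factors, made by the same hepatocytes, had small differences that mostly went one way. Among 30 tested complement genes 12 did not overlap on the higher side (40.0%, against 8.46% of all genes) and 1, C7 at about 1 CPM or less, on the lower side, with a median log2 difference of 0.22. C3, the central component of complement, stood at 7467, 10472 and 7325 CPM against 5229, 6246 and 5715 CPM. C4b stood at 1875, 2553 and 1411 CPM against 947, 1154 and 1086 CPM, though its reads may be shared with the copy C4a. Cfb, factor B of the alternative pathway, was level at 51.4 to 56.8 CPM and 51.9 to 54.6 CPM.

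Of 30 tested coagulation genes, 12 did not overlap on the higher side (40.0%, against 8.46% of all genes). On the lower side 0 were free of overlap, against 8.86% of all genes, and the median log2 difference was 0.17. Fga, the alpha chain of fibrinogen, stood at 3870, 5211 and 3726 CPM against 2321, 2748 and 2676 CPM, and Fgg, the gamma chain, was also free of overlap. Fgb, the beta chain, was not, because Het 1 at 3480 CPM fell among the low livers at 3044 to 3581 CPM. Complement summed to 21663, 25575 and 19751 CPM in the high livers and 15013, 17946 and 17080 CPM in the low livers. The sums of both lists did not overlap between the sets.

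**Figure D3:**
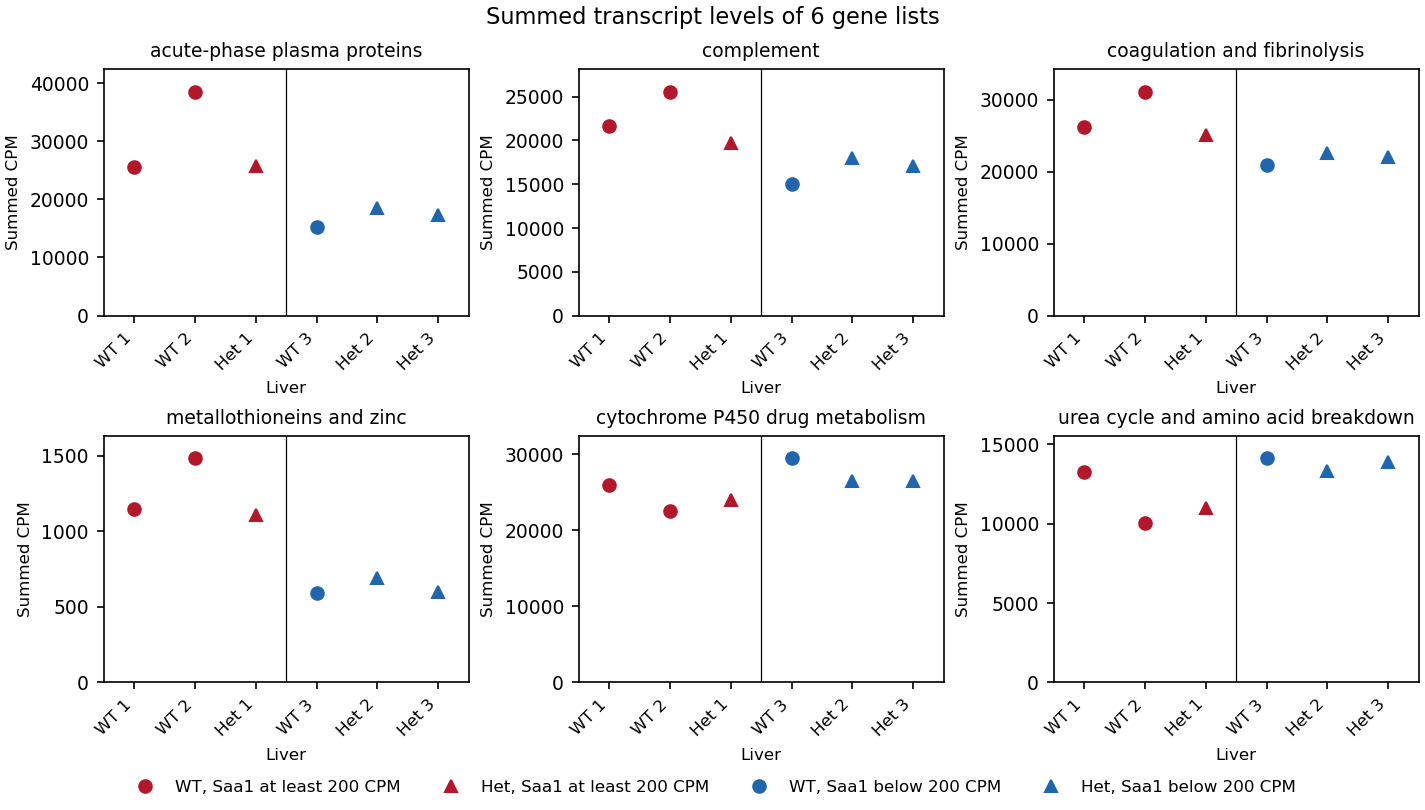
Summed TMM-normalised CPM of the members of 6 gene lists in each liver, without Saa1, on axes that start at 0. Livers left of each line have Saa1 of at least 200 CPM. Acute-phase, complement, coagulation and metallothionein sums are higher and P450 and urea cycle sums lower in all 3 of these livers, by the least for the urea cycle in WT 1 at 13264 CPM against 13334 CPM in Het 2.

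The negative acute-phase proteins differed in direction. Of 17 tested, 2 did not overlap on the higher side and 2 on the lower side (11.8% each, near the shares of all genes), with a median log2 difference of -0.05. Alb, albumin, stood at 58698, 59017 and 78783 CPM against 73703, 63818 and 60098 CPM, and Ttr, transthyretin, overlapped too. Pon1, an esterase of high-density lipoprotein, was lower, at 706, 678 and 777 CPM against 907, 913 and 909 CPM, and Ahsg, fetuin-A, was lower by 0.21 on the log2 scale. Serpina7, the thyroxine-binding globulin, stood on this list but was separated on the higher side at 64.0, 184 and 135 CPM against 30.5, 31.7 and 32.4 CPM, a fold of 3.66. The low livers were nearly equal for it, and WT 1 was the nearest of the high livers.

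Fatty acid genes had a mixed pattern. Of 34 tested members of the list of PPARA targets and fatty acid oxidation, 8 did not overlap on the higher side (23.5%, against 8.46% of all genes). On the lower side 1 was free of overlap (2.94%, against 8.86% of all genes). Vnn1, given above, and Cd36, the fatty acid translocase, were separated, the second at 33.1, 35.5 and 26.6 CPM against 14.5, 9.24 and 8.68 CPM. Fgf21, a hormone of fasting, stood at 6.59, 18.1 and 26.0 CPM against 5.04, 5.29 and 3.22 CPM, with WT 1 close to the low livers. The oxidation enzymes Acadm, Acadl, Hadha and Hadhb overlapped, with log2 differences of 0.04 to 0.23.

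Interferon-induced genes and p53 targets were compared in the same way. Of 27 tested interferon genes 8 did not overlap on the higher side (29.6%, against 8.46% of all genes) and 0 on the lower side, among them Mx2, an antiviral GTPase, at 9.29, 12.4 and 7.07 CPM against 5.55, 5.98 and 5.17 CPM. Isg15 and Ifit1 overlapped. Of 21 tested p53 targets, 4 did not overlap on the higher side (19.0%) and 0 on the lower side, and Cdkn1a and Mdm2 were not among them.

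The lower side held few separated genes. Gadd45g, a stress-inducible regulator of growth arrest, stood at 2.89, 1.41 and 1.43 CPM against 11.4, 4.83 and 8.24 CPM, a fold of 3.54. Slc13a2, a dicarboxylate transporter, stood at 0.722, 0.408 and 0.669 CPM against 2.06, 2.58 and 3.56 CPM. Inmt, an amine N-methyltransferase and the most abundant of the 3, stood at 340.2, 167 and 332 CPM against 626, 603 and 511 CPM. It lay just inside the criterion, with a smallest ratio of 1.503. On the higher side Ly6d lay just inside at 1.52 and Asns, asparagine synthetase, just outside at 1.47, with 1.59, 6.17 and 3.30 CPM against 0.308, 0.920 and 0.634 CPM.

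Some metabolic genes of the hepatocyte were lower by small amounts. Of 21 tested genes of the urea cycle and amino acid breakdown, 5 did not overlap on the lower side (23.8%, against 8.86% of all genes) and 2 on the higher side (9.52%, near the 8.46% of all genes), with a median log2 difference of -0.20. Otc, the urea cycle enzyme ornithine transcarbamylase, stood at 441, 305 and 399 CPM against 569, 459 and 474 CPM. Cps1 and Ass1, 2 other enzymes of the cycle, overlapped, with log2 differences of -0.48 and -0.61.

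Cytochrome P450 genes of drug metabolism summed to less in the high livers, at 22474 to 25883 CPM against 26474 to 29424 CPM, but single members differed in direction, with 4 of 32 higher (12.5%) and 3 lower (9.38%) without overlap, near the 8.46% and 8.86% of all genes. Cyp1a2 stood at 523, 449 and 630.2 CPM against 826, 803 and 808 CPM. Cyp2c39, whose reads may be shared with other Cyp2c genes, was higher, at 228, 236 and 237 CPM against 180 CPM in WT 3, 65.3 CPM in Het 2 and 84.4 CPM in Het 3. For this gene the gap between WT 3 and the 2 Het livers of the low set was wider than that between the sets.

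Secretory and chaperone genes were compared next. In the list of endoplasmic reticulum stress and secretion, 4 of 30 did not overlap on the lower side (13.3%, against 8.86% of all genes) and 2 on the higher side (6.67%, against 8.46%), shares near the background, with a median log2 difference of -0.21. Sdf2l1, a cofactor of chaperones in the endoplasmic reticulum, stood at 15.9, 13.1 and 9.85 CPM against 21.1, 39.1 and 31.8 CPM, and Derl3, which acts in degradation there, at 3.51, 4.95 and 4.54 CPM against 6.53, 16.4 and 14.0 CPM. In both, WT 3 was nearer to the high livers than Het 2 and Het 3 were. Of 13 heat shock chaperones, 3 did not overlap on the lower side (23.1%) and 0 on the higher side. Of 11 tested major urinary protein genes, whose reads may be shared among near-identical copies, 3 did not overlap on the lower side (27.3%).

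**Figure D4:**
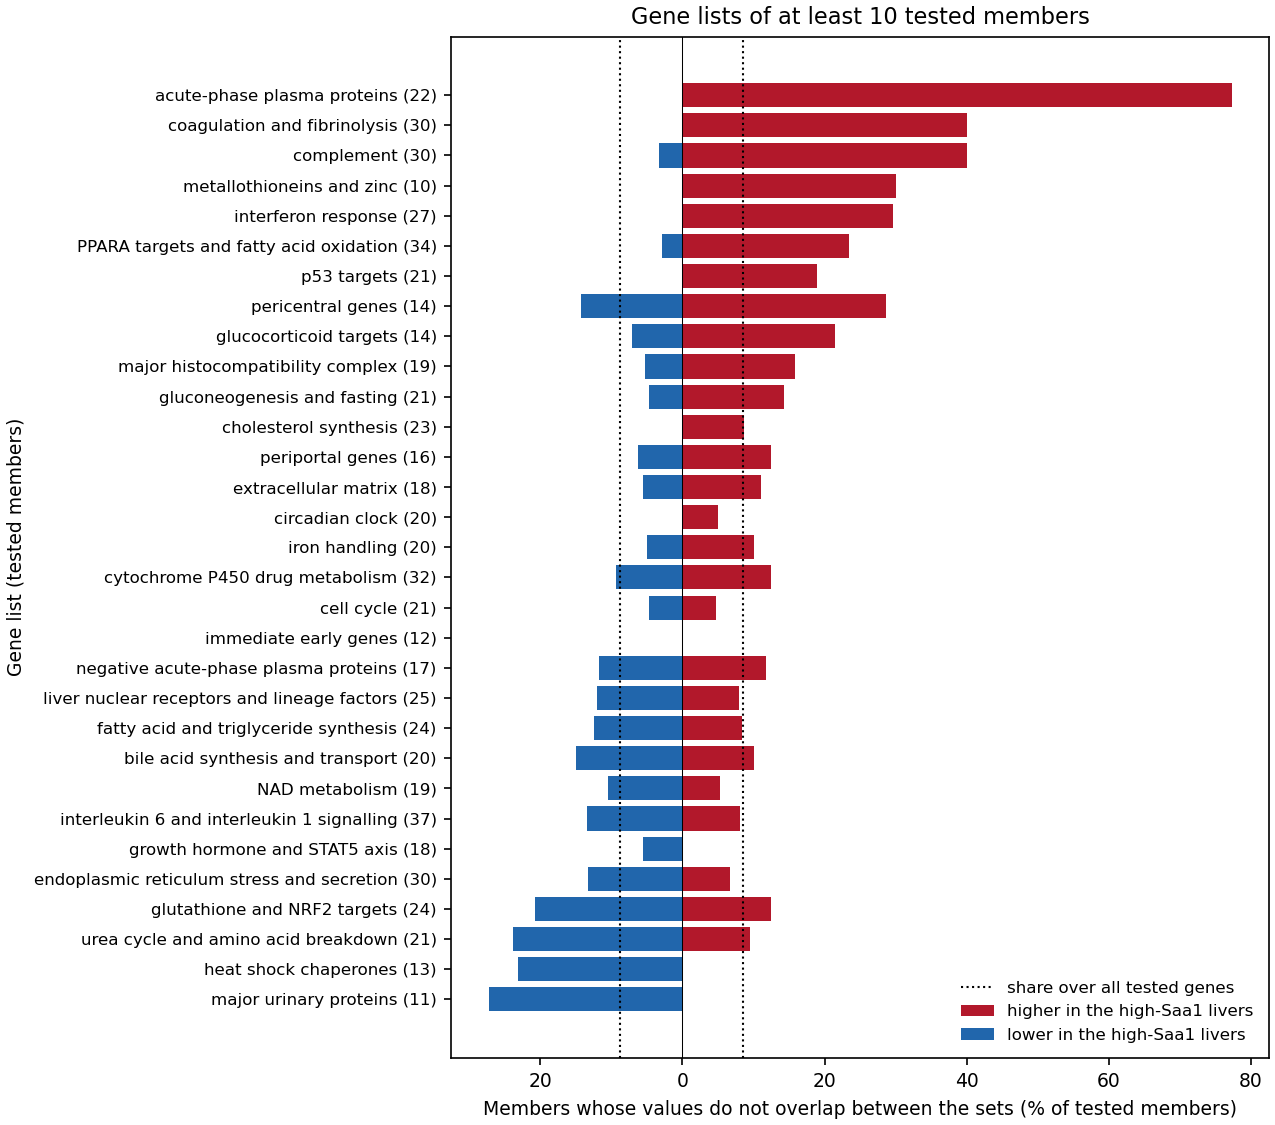
Share of tested members of each gene list (%, number tested in brackets) whose values did not overlap between the sets, higher to the right in red and lower to the left in blue, with dotted lines at the shares over all tested genes, 8.46% and 8.86%. The acute-phase list stands furthest to the right, with 17 of 22.

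Markers of the cell types of the liver were compared because whole tissue was sequenced. In bulk tissue, fewer cells of a type and less RNA per cell cannot be told apart. No marker that passed the filter on low counts was separated. Of all genes only 0.206% were separated on the higher side and 0.0238% on the lower side, so this is near the background and no result about cell types. NK cell and pancreatic acinar markers had none that passed the filter, and T cell, adipocyte and muscle markers had 1 each. Hepatocyte markers summed to 76173 to 98553 CPM in the high livers and to 80698 to 95345 CPM in the low livers, with 0 of 8 free of overlap. Kupffer cell markers, of the resident macrophages of the liver, summed to 159 to 200 CPM against 110 to 217 CPM, and all 8 overlapped. Over all genes 8.46% did not overlap on the higher side and 8.86% on the lower side, so 0 of 8 is near these shares. The log2 differences of the 8 Kupffer cell markers were all positive, at 0.20 to 0.60 with a median of 0.29. The marker lists of T cells, B cells, monocytes, sinusoidal endothelium, stellate cells, cholangiocytes and erythroid cells had overlapping sums. The log2 differences were positive for all 4 tested monocyte and all 5 tested erythroid markers. They were negative for 6 of 7 sinusoidal endothelium and 5 of 7 stellate cell markers. The part of cell types in the differences was not tested.

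Neutrophils carry Lcn2 in their granules, so their markers stand beside its value. Of the 10 neutrophil markers 2 passed the filter, and Ly6g had a count of 0 in all livers. The list summed to 2.87 to 3.90 CPM in the high livers and 2.11 to 2.88 CPM in the low livers, which barely overlapped. Lcn2 was at 64.6 to 323 CPM in the high livers. S100a9 stood at 0.963, 0.726 and 0.669 CPM against 0.257, 0.506 and 0.829 CPM. The part of neutrophils in the Lcn2 difference was not tested. Platelet markers summed to 3.18 to 3.58 CPM against 3.65 to 4.14 CPM, and Itga2b among them was lower without overlap. The part of the platelet sum in any difference was not tested.

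The contrast was also made within each genotype, where the 2 comparisons share no liver: WT 1 and WT 2 against WT 3, and Het 1 against Het 2 and Het 3. Within WT 288 genes (2.28%) were higher by the 1.5 ratio and within Het 181 (1.43%), and 35 were higher in both, which is 12.2% of the first and 19.3% of the second. On the lower side the counts were 151 (1.2%), 122 (0.966%) and 7 shared, or 4.64% and 5.74%. By the rule, the 26 higher and 3 lower separated genes are all among the 35 and the 7, so most of this sharing restates the earlier result. Both comparisons were also set by Saa1. For 5 genes higher within WT the direction was the opposite within Het, and likewise for 5 genes lower within WT. Across the 12630 genes the 2 log2 differences had a Pearson correlation of 0.19 and a Spearman correlation of 0.01, a description over genes, which are not independent. With 1 liver on 1 side of each comparison, a gene that is unusual in that liver alone is counted.

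**Figure D5:**
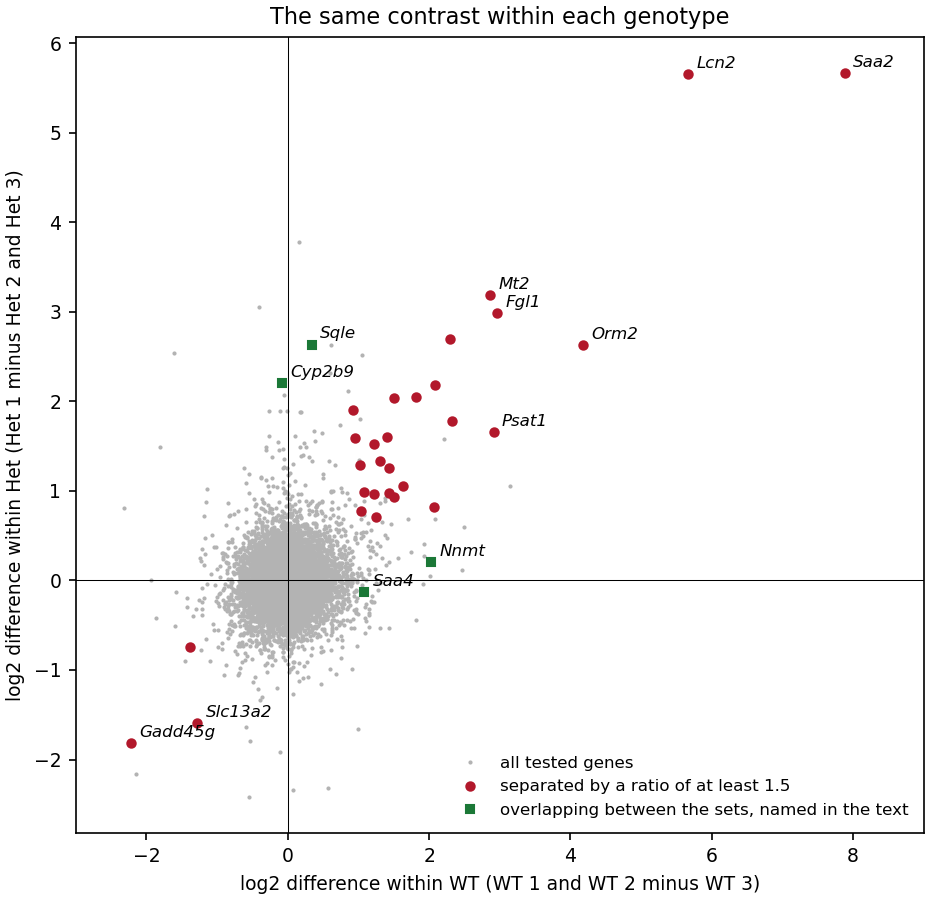
Log2 difference of CPM + 0.5 between high and low livers within WT (horizontal) and within Het (vertical), 1 point per tested gene without Saa1. Red points are the 29 separated genes, which by the rule lie in the upper right and lower left quadrants, and green squares are 4 genes that overlapped between the sets. Saa2 lies at 7.88 and 5.67, Nnmt at 2.02 and 0.21, and Cyp2b9 at -0.09 and 2.20.

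Lcn2 and Fgl1 had nearly the same log2 difference in both genotypes, 5.66 and 5.66 for Lcn2 and 2.97 and 2.99 for Fgl1. Saa2 differed more within WT, by 7.88, than within Het, by 5.67. Other transcripts varied between livers in other ways. Nnmt, nicotinamide N-methyltransferase, had 26.7 CPM in WT 1 and 19.6 CPM in WT 2, but 3.44 CPM in Het 1 and 2.63 to 5.24 CPM in the low livers. Sqle, squalene epoxidase of cholesterol synthesis, stood at 67.4 CPM in Het 1 against 6.85 CPM in Het 2 and 15.8 CPM in Het 3. In the WT livers it was at 22.96 CPM in WT 1 and 63.3 CPM in WT 2 against 30.1 CPM in WT 3. Of 23 tested cholesterol synthesis genes, 2 did not overlap on the higher side (8.70%, near the 8.46% of all genes), while the median log2 difference of the list was 0.43. Cyp2b9, a P450 with close copies, stood at 86.2 to 102 CPM in WT 1, WT 2, Het 1 and also WT 3, and at 20.8 CPM in Het 2 and 20.9 CPM in Het 3. The genes named in this paragraph were picked after their values were seen, and no difference between the genotypes' contrasts was tested.

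Genotype was tested across all 12631 genes as the labelled comparison of the study. With edgeR's quasi-likelihood test and Benjamini-Hochberg adjustment, 0 genes passed (0%), with a smallest adjusted p of 0.529, and 547 had an unadjusted p under 0.05. DESeq2 called 14 genes and limma-voom 0. With the Saa1 set of the liver as a covariate, 0 passed again (0%), with a smallest edgeR adjusted p of 0.126, and the unadjusted p was under 0.05 for 506. When WT 3 was left out, 17 genes were called by edgeR (WT 1 and WT 2, both of the high set, against the 3 Het livers), and when Het 1 was left out, so that all remaining Het livers were of the low set, 10 were called. The first included Saa4, Stat3, Il6ra, Il1r1 and Nnmt and the second Cyp2b9, Cyp2c38 and Cyp2c39, and none of either was among the 29 separated genes. Of the 29, 0 had an unadjusted genotype p under 0.05, the smallest being 0.0858, and all had an edgeR adjusted p of 1. For each of the 29 the criterion places Het 1 with WT 1 and WT 2, and WT 3 with Het 2 and Het 3. It limits any genotype difference in them beforehand, so neither these p-values nor their absence from the calls is evidence about genotype. The values of the 29 were lower in Het for 27 and higher for 2, where 2 of the 3 high livers were WT.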

How the data were processed

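RNA sequencing libraries were made from polyA RNA of 6 livers with Trizol and an Illumina TruSeq kit, per the labels' protocols. TopHat2 2.0.11, HTSeq 0.6.1, DESeq and mm9 are named in the submitters' processing notes without their roles, and the annotation release and counting strand are not given in the sources used here. In 1 table per library, the authors deposited the raw counts of 37991 Ensembl genes for each library, and 32919 IDs were matched to a symbol in the reference name table. Without strand, reads of overlapping and antisense genes cannot be told apart. Total counts ranged from 19840541 to 22041117.

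Livers were set apart by Saa1 at 200 CPM. The counts were fitted with edgeR 4.0.16 (R 4.3.3): filterByExpr by genotype kept 12631 genes, TMM gave normalised CPM, and the robust quasi-likelihood test with Benjamini-Hochberg adjustment at 0.05 was used for genotype alone. For the Saa1 contrast a smallest ratio of 1.5 on CPM + 0.5 was used, with no test. DESeq2 1.42.0, limma-voom (limma 3.58.1), other scalings, filters, pseudocounts and ratios, the replicate number as a block, and each liver left out were the alternatives. The scripts were tested on simulated counts.

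The livers and the 48 gene lists (33 pathways, 15 cell types) were chosen with earlier results of these data known. The genes named were Saa1, Ing5, up to 12 separated genes per direction with the widest gap at a mean of at least 1 CPM, up to 6 separated and 3 most abundant members of each list, and up to 5 per direction that passed a genotype test. Some genes are not reported here. Every other gene named, the motifs and the comparison within genotypes were chosen after their values were seen. Upstream sequences came from the first RefSeq entry of each gene, and genes without one were left out of the motif counts.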

Additional observations from a re-analysis of the deposited data

How the results depend on the processing

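Of the log2 differences of 136 named genes, none moved by more than the spread between livers when 1 liver was left out. With 3 livers per set, leaving 1 out shifts the mean of a set by less than its spread, so this count does not show stability. The folds did change: with 1 liver left out Saa2 ranged from 75.0 to 220, Orm2 from 8.03 to 22.7 and Mt2 from 5.69 to 12.5. Under the other alternatives 4 gene and setting pairs moved by more than the spread, all with another pseudocount. Of the gene list medians, 13 list and liver pairs moved when a liver was left out and 1 under another alternative. The counts of separated genes follow the criterion: a smallest ratio of 1.2 gave 110 higher and 62 lower genes and a ratio of 2 gave 7 and 1, against 26 and 3. A pseudocount of 0.1 CPM gave 31 higher and 9 lower genes and one of 2 CPM gave 18 higher and 1 lower.  With 1 liver left out the counts were 29 to 62 higher and 5 to 25 lower genes. DESeq2 size factors, both other filters and totals without the 20 most abundant genes kept each count within 1.5 times. For genotype 0 genes were called by edgeR, 1 without the low-count filter, 14 by DESeq2 and 0 to 17 with 1 liver left out (17 without WT 3 and 10 without Het 1), and the cause was not tested. With the replicate number as a replicate block 0 were called. Same-numbered livers had correlations of -0.02, -0.09 and 0.23 in their deviations from the genotype means, so the numbers are not taken to pair the livers. Genes near 1 CPM rest on few counts, and their ratios are the least precise.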
